A study of Phanerodontia chrysosporium with 8 samples.

Results

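Of 12746 gene models in the expression matrix of the white-rot fungus Phanerodontia chrysosporium, 105 were highest in young fruiting bodies and lower again in mature ones. They were chosen by their own deposited levels, on the log2 scale of RPKM (reads scaled to the length of the model and the depth of the library). A member's mean over the young fruiting bodies had to lie at least 1 log2 unit (2-fold) above its mean over vegetative mycelium. It also had to lie at least 1 above the median of the fruiting bodies, and to reach 2 on the log2 scale, which is 4 RPKM. The peak is therefore the choice itself and not a finding, and differences used in the choice are given below as descriptions.

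All libraries came from strain RP-78, grown over cellophane on a sugar, malt and yeast agar for 7 days in darkness at 37 °C. For fruiting, cultures were then moved to a moist chamber at 25 °C in dim light. The vegetative mycelium (n = 3) is the mat of growing hyphae. Young fruiting bodies (n = 2) were initials, collected as compact mats set off clearly from the mycelium around them, and fruiting bodies (n = 3) were collected when spores had begun to drop. Whether the mycelium was collected before the move is not given in the sources used here, so stage, temperature, moisture, light and culture age cannot be told apart.

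In mushroom-forming fungi, hyphae that grow apart as mycelium first knit together into initials, and the initials then differentiate tissues. In the fertile layer, basidia undergo nuclear fusion and meiosis and bear the spores. Initials are thus a stage of assembly and patterning, and mature bodies one of meiosis and spore production. The fruiting bodies of this species are flat crusts without a stalk or cap, so the collected tissue is a sheet in which these processes lie close together. In such bulk tissue, fewer cells of a type and less RNA per cell cannot be told apart. The files pair the models with protein IDs and with no gene names, so members are given by ID and no role is assigned to any of them.

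Uniquely mapped reads came to 16144543 to 35837246 per library, and members had at least 24 of them in each young fruiting body library. Replicate 3 of the fruiting bodies was unlike the rest of its stage: across models its log2 counts correlated at 0.898 and 0.918 with fruiting body replicates 1 and 2, which correlated at 0.983 with each other. Replicate 3 correlated at 0.863 to 0.871 with the mycelium libraries, against 0.788 to 0.836 for fruiting body replicates 1 and 2. Replicates 1 and 3 of that stage had a flowcell of their own, and replicate 2 shared one with every library of the earlier stages. Each fruiting body library is therefore given separately.

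The 105 members ranged widely in level. Their mean in young fruiting bodies (of log2 values, turned back to RPKM) ran from 4.05 to 3644 RPKM, and 32 members reached 100 RPKM. Over the members the median was 6.40 RPKM in mycelium, 50.0 RPKM in young fruiting bodies and, for the median of the fruiting bodies, 13.8 RPKM. Over all models of the matrix the median was 20.1 RPKM in mycelium, 21.3 RPKM in young fruiting bodies and, for the fruiting body median, 21.8 RPKM. The difference between young fruiting bodies and mycelium had a median of 2.63 log2 units over the members and reached 10.57. The later difference was smaller, with a median of -1.51 and an extreme of -4.22 for fruiting body minus young fruiting body. As a share of the earlier log2 difference, the later one undid a median of 68.5%, with quartiles of 41.2 and 90.9%.

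The members together took 0.181, 0.185 and 0.233% of unique reads in mycelium replicates 1, 2 and 3. Their share was 2.65 and 2.49% in young fruiting bodies (replicates 1 and 2) and 1.12, 0.829 and 0.394% in fruiting bodies (replicates 1, 2 and 3). The 4 most abundant members held 1.05 and 1.08% in the libraries of young fruiting bodies, and 0.539, 0.353 and 0.0364% in those of fruiting bodies. Without them, the members took 0.172 to 0.217% of mycelium reads, 1.60 and 1.41% of those in young fruiting bodies, and 0.584, 0.476 and 0.358% of those in fruiting bodies. With or without the 4 most abundant, both young fruiting body libraries lay above every other library and fruiting body replicate 3 was the lowest of its stage.

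**Figure D1:**
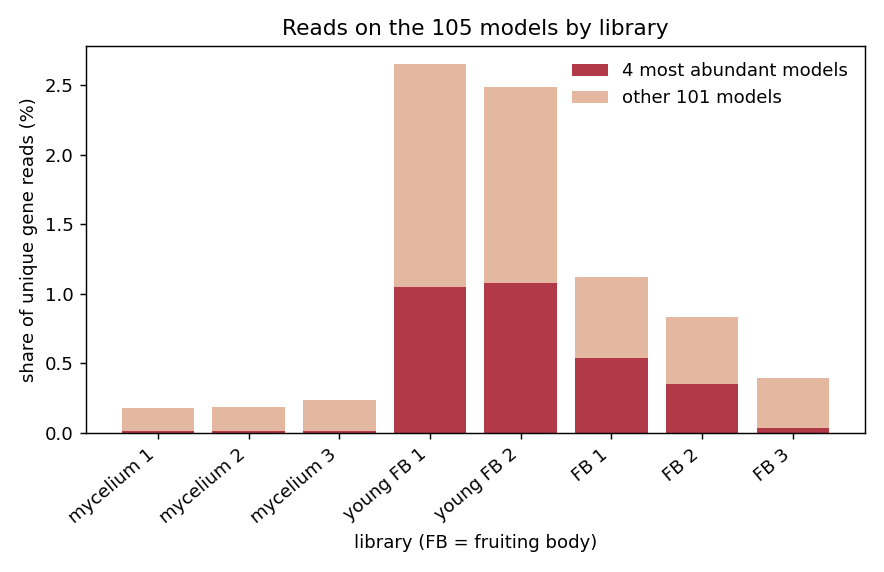
Share of unique gene reads (percent, linear axis from 0) on the 105 members in each of the 8 libraries, in stage order. The dark red part is the 4 most abundant members and the light part all others. The young fruiting body libraries reach 2.65 and 2.49%, and fruiting body replicate 3 (0.394%) is the lowest of its stage.

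By their level in fruiting bodies relative to mycelium the members fell into 3 groups. For 57 the fruiting body median lay within 1 log2 unit of the mycelium mean, so they had returned. For 46 it still lay at least 1 above mycelium, and for 2 it lay at least 1 below. The 46 that stayed above had a median of 94.2 RPKM in young fruiting bodies, against 28.6 RPKM for the 57 that returned. Their median in mycelium was 5.76 RPKM, against 6.86 RPKM. Their difference from mycelium had a median of 3.86 log2 units against 1.75. The grouping itself makes this difference at least 2 log2 units in the 46. Their higher level in young fruiting bodies therefore comes partly from the grouping. The later differences were alike in median, at -1.45 for those that stayed above and -1.53 for those that returned.

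**Figure D2:**
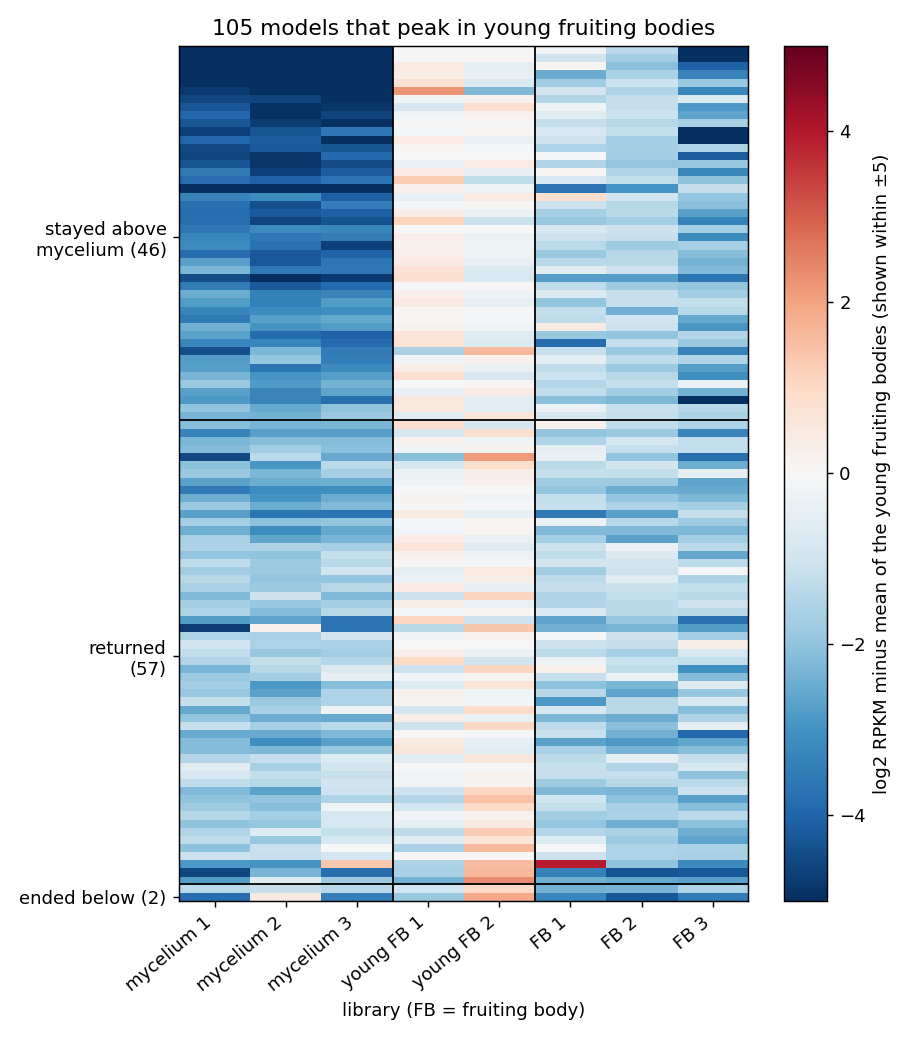
Each row is 1 of the 105 members and each column a library; colour gives log2 RPKM minus the member's mean in young fruiting bodies, shown within ±5. Rows are split into the 46 members that stayed above mycelium, the 57 that returned and the 2 that ended below, and ordered within each by fruiting body median minus mycelium mean. Single dark cells among paler neighbours show members that 1 library sets apart.

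The members of highest level all belonged to the group that stayed above mycelium. Model 2901394 (1392 bp) stood at 10.7, 8.18 and 9.44 RPKM in mycelium, 3481 and 3815 RPKM in young fruiting bodies, and 1826, 1095 and 89.1 RPKM in fruiting body replicates 1, 2 and 3. No stages overlapped, and fruiting body replicate 3 was more than 10-fold below replicates 1 and 2. Model 3028392 (1017 bp) stood at 1.53, 1.34 and 1.81 RPKM in mycelium, 2328 and 2365 RPKM in young fruiting bodies, and 2093, 958 and 63.5 RPKM in fruiting bodies. Its fruiting body replicate 1 lay close to the young fruiting bodies, so its place among the members rests on replicates 2 and 3.

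Model 2909548 (1050 bp) differed in being well expressed in mycelium, at 61.3, 77.7 and 124 RPKM. It reached 1499 and 1584 RPKM in young fruiting bodies and 875, 664 and 13.5 RPKM in fruiting bodies. Replicates 1 and 2 were above every mycelium library while replicate 3 was below every one, so its label of staying above mycelium holds for replicates 1 and 2 only. Model 1681354 (828 bp) stood at 15.0, 8.49 and 6.13 RPKM in mycelium, 1855 and 1104 RPKM in young fruiting bodies, and 258, 483 and 141 RPKM in fruiting bodies. Here the 3 fruiting body libraries were all at least 2-fold below both young fruiting body libraries, and all above mycelium.

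Among members that stayed above mycelium, those with the greatest peak height were 2975320, 3027272, 1681354 and 2897938. Peak height is the smaller of the differences to either neighbouring stage, and only members whose young fruiting body libraries all lay above every other library and averaged at least 10 RPKM were ranked. Model 2975320 (752 bp) stood at 10.0, 7.64 and 8.08 RPKM in mycelium, 463 and 327 RPKM in young fruiting bodies, and 30.2, 49.4 and 172 RPKM in fruiting bodies. Its fruiting body replicate 3 was the highest of the stage, the reverse of model 2901394. Model 3027272 (1629 bp) stood at 5.08, 2.85 and 3.996 RPKM in mycelium, 192 and 63.2 RPKM in young fruiting bodies, and 16.4, 16.3 and 8.75 RPKM in fruiting bodies. Model 2897938 (1227 bp) stood at 12.6, 9.28 and 6.82 RPKM in mycelium, 136 and 63.6 RPKM in young fruiting bodies, and 21.6, 19.8 and 2.76 RPKM in fruiting bodies. For this model replicate 3 lay below every mycelium library, while replicates 1 and 2 lay above every one.

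Among members that returned, the same ranking gave models 3570, 2689790, 2917098 and 2910445. Model 2917098 (1791 bp) was the plainest case, with 11.6, 6.09 and 7.92 RPKM in mycelium, 71.2 and 38.9 RPKM in young fruiting bodies, and 8.22, 7.11 and 8.80 RPKM in fruiting bodies. All fruiting body libraries of this model fell inside the range of the mycelium libraries. Model 2689790 (1294 bp) stood at 12.4, 6.59 and 6.25 RPKM in mycelium, 113 and 59.2 RPKM in young fruiting bodies, and 7.07, 12.3 and 36.6 RPKM in fruiting bodies. Replicates 1 and 2 were back in the mycelial range, and replicate 3 was not.

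The other members of that ranking differed more between replicates. Model 3570 (564 bp) stood at 2.87, 13.5 and 4.95 RPKM in mycelium, 21.7 and 209 RPKM in young fruiting bodies, and 6.46, 3.34 and 3.61 RPKM in fruiting bodies. Its young fruiting body libraries differed almost 10-fold from each other. Model 2910445 (909 bp) stood at 1.58, 1.72 and 0.866 RPKM in mycelium, 22.4 and 5.22 RPKM in young fruiting bodies, and 1.72, 2.94 and 0.806 RPKM in fruiting bodies. Both were higher in each young fruiting body library than anywhere else, but by amounts that depended on the library.

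The 2 members that ended below mycelium were models 2972098 and 1716257. Model 2972098 (1728 bp) stood at 7.29, 8.27 and 7.16 RPKM in mycelium, 9.43 and 36.3 RPKM in young fruiting bodies, and 3.63, 3.68 and 6.27 RPKM in fruiting bodies. Every fruiting body library was below every mycelium library, and young fruiting body replicate 1 was barely above mycelium. Model 1716257 (1602 bp) stood at 5.43, 104 and 7.22 RPKM in mycelium, 20.9 and 281 RPKM in young fruiting bodies, and 7.97, 4.02 and 6.86 RPKM in fruiting bodies. Mycelium replicate 2 lay above young fruiting body replicate 1, so these stages overlapped, and mycelium replicates 1 and 3 lay in the range of the fruiting bodies.

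**Figure D3:**
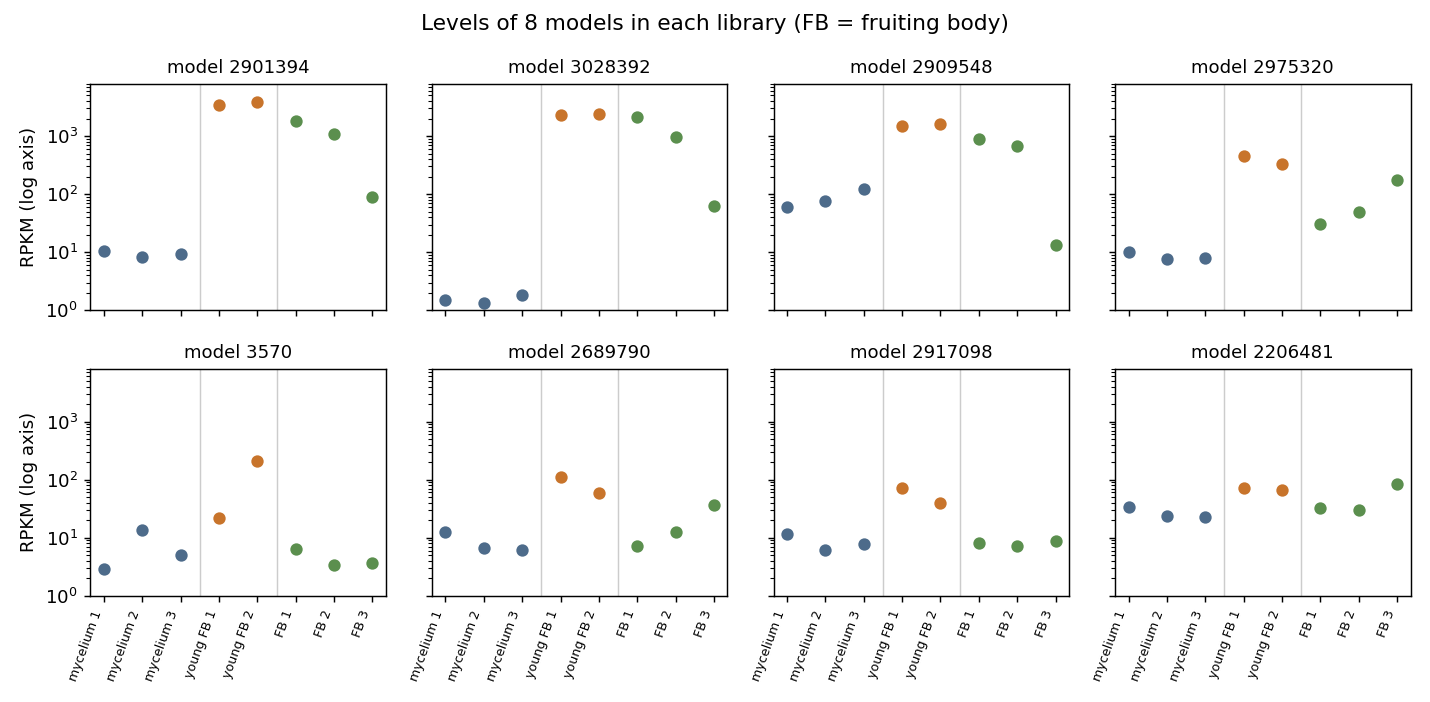
Levels of 8 members (the 3 highest, the highest peak among those that stayed above, the 3 highest peaks among those that returned, and the member whose fruiting body replicate 3 was highest relative to its own young fruiting body mean) in each library, in RPKM on a shared log axis; blue points are mycelium, orange young fruiting bodies and green fruiting bodies. Model 2901394 lies at 1826, 1095 and 89.1 RPKM in the 3 fruiting body libraries, model 2917098 is back among the mycelium values in all 3, and model 2206481 is at 85.5 RPKM in fruiting body replicate 3, above both young fruiting body libraries.

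Values just inside and outside the thresholds were close. The smallest difference from mycelium inside was that of model 2573410, at 1.05 log2 units, with model 3039275 just outside at 0.99. Model 3039275 stood at 134 and 4.20 RPKM in the young fruiting bodies against 8.48 to 14.7 RPKM in mycelium. The smallest later difference inside was that of model 2933447, at -1.01, with model 2913236 just outside at -0.99. At the floor, model 2976108 (2.02) was inside and model 2929763 (1.98) outside.

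The young fruiting bodies have 2 libraries, and a mean can be carried by 1 of them. Only 56 of the 105 members met the rule with each young fruiting body library taken alone, 20 met it only with replicate 1 and 29 only with replicate 2. The libraries differed by over 1 log2 unit in 40 members (38.1%), against 6.96% of all models. Replicate 1 was the higher in 16 of these and replicate 2 in 24. The 16 were mostly members that stayed above mycelium (11 of 16), and the 24 mostly members that returned (19 of 24). Models with 1 high library can meet a rule set on a mean of 2. The 38.1% can therefore come in part from the choice.

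The extremes, chosen after their values were seen, show the size of this. Model 2661424 (1874 bp) stood at 6.01, 27.5 and 11.8 RPKM in mycelium, 8.28 and 215 RPKM in young fruiting bodies, and 7.79, 7.06 and 6.44 RPKM in fruiting bodies. Model 2968333 (483 bp) went the other way, with 16.1, 9.68 and 11.01 RPKM in mycelium, 2004 and 96.2 RPKM in young fruiting bodies, and 226, 154 and 46.4 RPKM in fruiting bodies. Of the 24 members with the higher replicate 2, 16 also had mycelium libraries more than 1 log2 unit apart. This was so in 3 of the 16 members with the higher replicate 1 and in 12 of the 65 others. For model 2661424 a single young fruiting body library lies above all mycelium libraries.

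**Figure D4:**
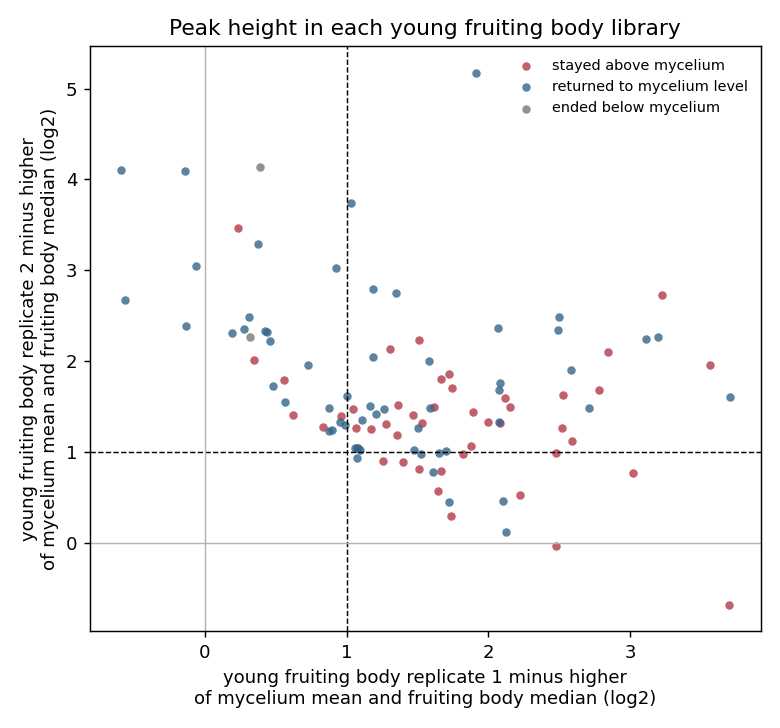
Each point is a member, placed by how far young fruiting body replicate 1 (horizontal) and replicate 2 (vertical) lie above the higher of its mycelium mean and fruiting body median, in log2 units. Dashed lines mark the threshold of 1. The 56 members that met the rule with each library alone lie in the upper right. The rule was met by 20 only with replicate 1 and by 29 only with replicate 2. It also sets a floor of 4 RPKM, which is not drawn. Model 2976108 lies in the upper right but counts under replicate 1, since its replicate 2 (3.73 RPKM) misses the floor.

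Libraries that took no part in the choice give a reading on the same measure, set beside values that did take part. When models were chosen without young fruiting body replicate 1, 155 passed, and 57 of them (36.8%) had that library at least 1 above mycelium mean and fruiting body median alike. Of all 10398 models at or above the floor, 1.13% did. When replicate 2 was withheld, 129 models passed and 58 of them (45.0%) met the same condition in it, against 1.42% of all models above the floor. With any difference in that direction counted, the shares were 73.5 and 77.5%, against 31.6 and 27.9%. The mycelium mean and fruiting body median still took part in the choice in these readings, so the withheld young fruiting body library is their only independent part. Both were chosen low, which those of all models above the floor were not. Part of each gap between the shares therefore comes from the choice.

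The withheld mycelium libraries lay at least 1 below young fruiting bodies in 98 of 102, 98 of 104 and 91 of 107 models chosen without mycelium replicates 1, 2 and 3. Among all models above the floor the shares were 16.3, 16.8 and 14.1%. Without fruiting body replicates 1, 2 and 3 in turn, 218, 183 and 86 models were chosen. The withheld library then lay at least 1 below young fruiting bodies in 67 (30.7%), 83 (45.4%) and 68 (79.1%) of them, against 4.11, 2.25 and 9.62% of all models above the floor. In the mycelium and fruiting body readings the young fruiting body mean, against which the withheld library is set, was itself chosen high, so part of each difference comes from the choice. The choices without replicate 1 or 2 take replicate 3 into an average of 2 libraries. Of the 105 members, 98, 91 and 78 were chosen again when fruiting body replicate 1, 2 or 3 was withheld, and 85 and 76 when replicate 1 or 2 of the young stage was.

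Fruiting body libraries differed in how far below the young fruiting bodies the members lay. The median difference from the young fruiting body mean was -1.25 log2 units in replicate 1, -1.49 in replicate 2 and -1.997 in replicate 3. Members at least 1 below numbered 74, 97 and 95 (70.5, 92.4 and 90.5%), against 7.13, 3.50 and 9.12% of all models. In all 3 libraries 56 members (53.3%) were at least 1 below, against 0.855% of all models. The choice asked for a median at least 1 below, which at least 2 of the 3 libraries then meet, so these counts describe it. Replicate 3 was the lowest of its stage in 70 of the 105 members, where it was the lowest in 41.4% of all models. It lay below every mycelium library in 19 members (18.1%), against 32.4% of all models, and 14 of the 19 were among the 57 that returned by their median.

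Replicate 3 was not low throughout. The members in which it lay nearest to or above the young fruiting body mean were 2206481, 3026009, 1949236 and 3030888. Model 2206481 (1700 bp) stood at 34.2, 23.8 and 22.3 RPKM in mycelium, 70.5 and 66.8 RPKM in young fruiting bodies, and 33.0, 29.7 and 85.5 RPKM in fruiting bodies. It was the only member of the 105 in which replicate 3 exceeded the young fruiting body mean. Model 1949236 (1523 bp) stood at 2.99, 1.54 and 2.14 RPKM in mycelium, 10.2 and 11.7 RPKM in young fruiting bodies, and 3.9997, 4.88 and 8.78 RPKM in fruiting bodies. Models 3026009 and 3030888 reached 6.86 and 32.3 RPKM in replicate 3, above 2.16 and 3.49 RPKM and above 19.5 and 18.9 RPKM in replicates 1 and 2.

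In replicate 1, 7 members were at or above the young fruiting body mean. The extreme, chosen after its value was seen, was model 2980856 (1580 bp), at 2.61, 2.504 and 49.5 RPKM in mycelium, 6.57 and 56.7 RPKM in young fruiting bodies, and 296, 4.84 and 2.11 RPKM in fruiting bodies. Single libraries of all 3 stages were high for this model and the median of the fruiting bodies hid the highest of them. Replicate 2 lay below the young fruiting body mean in all 105 members.

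**Figure D5:**
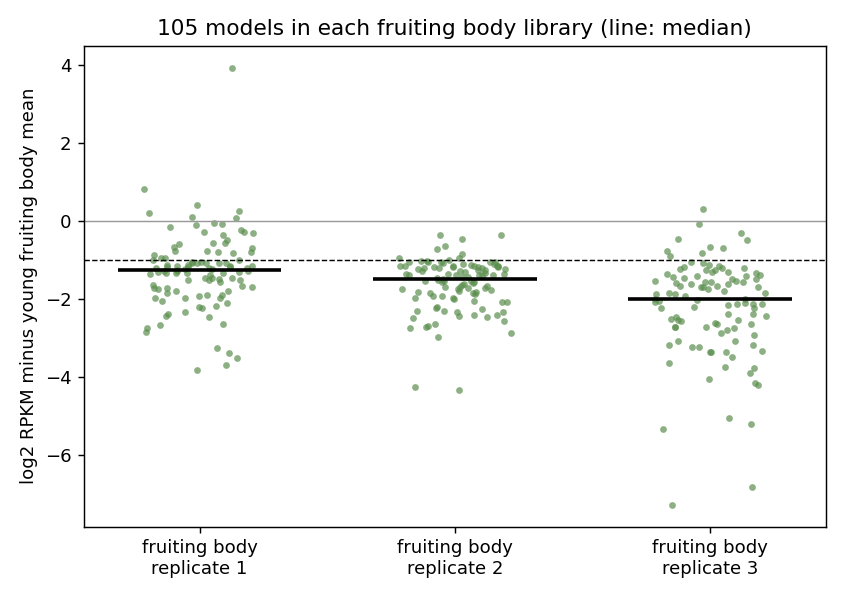
Level of each of the 105 members in fruiting body replicates 1, 2 and 3, as log2 RPKM minus its mean in young fruiting bodies; the black line is the median and the dashed line marks the threshold of -1. Medians lie at -1.25, -1.49 and -1.997. Single points above 0 are members higher in that library than in the young fruiting bodies.

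A stricter form of the pattern left 23 members. They were the only models of all 12746 to meet it, since the stricter form implies the choice. In these, each young fruiting body library lay at least 1 log2 unit above each mycelium and each fruiting body library, replicate 3 included. They ranged from 7.97 to 1431 RPKM in young fruiting bodies and from 378 to 2739 bp in length, with peak heights of 1.42 to 2.76 log2 units. Of the 23, 12 had returned to the mycelial level by the median and 11 had stayed above it. Model 1681354, described above, was the most abundant. The least abundant, model 4812 (378 bp), stood at 0.888, 0.592 and 0.315 RPKM in mycelium (5, 7 and 2 reads), 9.32 and 6.82 RPKM in young fruiting bodies, and 3.16, 2.36 and 2.51 RPKM in fruiting bodies. Model 4812 was also 1 of 4 members (3.81%) below 1 RPKM in every mycelium library, against 2.81% of all models and 0.327% of those at or above the floor. Among models with the same rise and floor but without the later fall, it was 30 of 1453 (2.06%). The choice places mycelium below young fruiting bodies, so low mycelium levels come in part from it.

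In edgeR's quasi-likelihood test across 12510 models, which all 105 members entered, 87 members (82.9%) were called higher in young fruiting body against mycelium. A call is a Benjamini-Hochberg adjusted p below 0.05, and 15% of all models were called higher. In fruiting bodies against young fruiting bodies 0 members were called lower, as 0% of all models were. At an unadjusted p below 0.05, 82 members (78.1%) were lower, against 3.69% of all models. DESeq2 called 47 members lower, against 0.817% of all models, and edgeR without fruiting body replicate 3 called 16, against 0.289%. With the flowcell that all stages share taken alone 6 members were called lower, against 0.0796% of all models, and the other flowcell holds fruiting bodies only. Both contrasts chose the members, so these counts describe the choice and carry no further weight.

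Without fruiting body replicate 3, the 16 members called lower in fruiting bodies included 5 of the models given above. As a description of values that chose them, the log2 fold change of fruiting body against young fruiting body was -3.32 ± 0.31 for model 2975320 and -2.86 ± 0.38 for model 2917098 (SE). It was -3.16 ± 0.47 for model 2689790, -2.28 ± 0.40 for model 2897938 and -2.98 ± 0.50 for model 3027272 (SE). All 16 belonged to the 56 members that each young fruiting body library alone would choose.

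No threshold was set on fruiting body against mycelium, although the same libraries entered the choice. In that comparison 43 of the 105 members (41.0%) were called higher in fruiting bodies, against 18.4% of all models, and 0 were called lower, against 13.4% (edgeR). At an unadjusted p below 0.05, 51 were higher and 0 lower (edgeR), against 24.4 and 18.8% of all models. DESeq2 called 47 higher and 0 lower, against 20.2 and 17.8% of all models. This comparison was made on the mycelium and fruiting body values that entered the choice, both of them chosen low beside young fruiting bodies. These counts, and the p-values for single models below, therefore describe the choice and carry no further weight. The median log2 fold change of the members was 0.89, and that of all models 0.05.

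The calls followed the grouping by median, which uses the same levels: 39 of the 46 members that stayed above were called higher and 4 of the 57 that returned. The largest difference among the models given here was that of model 3028392, at 9.40 ± 1.26 on the log2 scale (SE, adjusted p by edgeR 0.00107). Model 2902115 (2292 bp), which had the smallest adjusted p, stood at 12.3, 8.77 and 7.35 RPKM in mycelium, 242 and 233 RPKM in young fruiting bodies, and 103, 87.7 and 78.0 RPKM in fruiting bodies. It was higher in fruiting bodies than in mycelium by 3.26 ± 0.25 on the log2 scale (SE, adjusted p = 0.000104, edgeR), with 2.47% of its reads not unique. Models 2901394, 1681354, 2975320 and 3027272 were also called higher, with log2 fold changes of 6.73, 4.90, 3.30 and 1.80 (adjusted p = 0.00193, 0.000558, 0.00487 and 0.0162, edgeR). Model 2909548, with replicate 3 below mycelium, was not (2.56 ± 1.06, SE, adjusted p = 0.0988, edgeR).

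Among members that returned, model 2917098 differed by -0.08 ± 0.30 between fruiting bodies and mycelium (SE, adjusted p = 0.854, edgeR). Model 3570 differed by -0.72 ± 0.83 (SE, adjusted p = 0.542, edgeR), an error that leaves a 2-fold difference within reach. Of the members lower in fruiting bodies, model 1716257 had the smallest adjusted p, at 0.140 (-2.65 ± 1.25, SE, edgeR). Without fruiting body replicate 3, 55 members were called higher, against 24.2% of all models, and 0 lower, against 24.7% (edgeR). The count was 24 without mycelium replicate 2 and 24 without mycelium replicate 3, where 10.6 and 11.2% of all models were called higher (edgeR). It was 16 with the flowcell as a covariate, where the fitted fruiting body level rests on replicate 2 and 6.66% of all models were called higher (edgeR). On the shared flowcell alone it was 38, against 14.4% of all models (edgeR). The calls over all models thus fell along with those of the members in these 4 fits.

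Model length, which the choice did not use, had a median of 1227 bp in the members with quartiles of 890 and 1629 bp. All models of the matrix had a median of 1221 bp, and 10 members (9.52%) were shorter than 500 bp, against 8.90% of all models. The shortest was 234 bp and the longest 4005 bp. The 57 members that returned had a median of 1332 bp and the 46 that stayed above 1074 bp. Reads were nearly all unique: 3 members had over 1% of their reads not unique, against 8.03% of all models. The highest share, 28.2%, was that of model 2948871. Where else its reads map is not known, so its level is uncertain.

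For comparison, 1453 models met the same rise and floor but had a fruiting body median less than 1 below young fruiting bodies, so the transient members were the smaller part of models that were higher in young fruiting bodies. These 1453 had a median length of 1166 bp, a median of 9.01 RPKM in mycelium and 39.9 RPKM in young fruiting bodies. The young fruiting body libraries differed by over 1 log2 unit in 38.1% of the 105 members, against 8.88% of these models. Fruiting body replicate 3 was the lowest of its stage in 66.7% of the members, against 82.9% of these models. That replicate lay at least 1 below young fruiting bodies in 403 of the 1453 (27.7%), whose median did not. A mean carried by 1 young fruiting body library can meet the rule, so the 38.1% can come in part from the choice. These shares describe the sets, and no test of the difference was made because models of a library are not replicates.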

How the data were processed

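Polyadenylated RNA of 8 libraries was sequenced by the authors with a kit that does not mark strand (per the labels' protocols), so overlapping antisense models cannot be told apart. The deposited files give counts of unique and total gene reads and model length, per the file headers. The deposited matrix holds log2 RPKM: apart from 1 constant per library it equals the logged ratio of total reads to length, to within 0.00608 for 99% of models that have 100 reads or more. Limma 3.18.13, edgeR 3.4.2 and R 3.0.2 appear in the submitters' processing notes. Aligner and genome build are not given in the sources used here. Levels in RPKM are 2 to the power of the deposited values.

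Tests used unique reads as deposited in edgeR 4.0.16 (R 4.3.3): filterByExpr, TMM factors, robust quasi-likelihood fit of all 8 libraries with stage as the only term, and adjustment over all 12510 models. The SE is the log2 fold change divided by the square root of F. A check of the fit on simulated counts covered fruiting body against mycelium only and held no outlying library. Its outcome is not reported here, so nothing is drawn from it. Alternatives used DESeq2 1.42.0, limma-voom (limma 3.58.1) and the settings given at the end. All replicate pairs differed beyond sampling noise (chi-square over its degrees of freedom at least 69.2). The series calls the libraries of a stage biological replicates, without saying whether cultures were separate, so p-values measure only the spread among these libraries, which may be technical. A count of 0 allows up to 3 reads, or 0.0837 to 0.186 CPM, counting error only; no member had 0 reads in any library.

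Members and lists were chosen with earlier results of these data known. Named members were, per group of later level, the 4 of greatest peak height (libraries not overlapping, at least 10 RPKM), the 4 of highest level, the 4 with fruiting body replicate 3 highest relative to young fruiting bodies, those nearest each threshold, and the smallest adjusted p per direction in fruiting body against mycelium. Of the group that ended below, 1 member met the first part of this. Gene lists by product name were not run, since the files carry no names.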

Additional observations from a re-analysis of the deposited data

How the results depend on the processing

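The number of members was 105. It stayed within 1.5 times of that with the mean of the fruiting bodies (139), with no floor and with a floor of 10 RPKM. So it did with the shared flowcell alone and with unique-read RPKM in 3 settings. These were TMM and DESeq2 scaling with 0.1 added before the log, and TMM scaling with 1 added. In them 103, 103 and 97 of the members were chosen again. Of the 139 models chosen with the mean of the fruiting bodies, 92 were members. The number was 17 with thresholds of 2 and 23 with every library apart by 1. It was 56 with each young fruiting body library alone (chosen after seeing the data). These last 3 settings are stricter by construction. Leaving out 1 library gave 86 to 218. Members called higher in fruiting body against mycelium (43) numbered 16 with the flowcell as a covariate and 26 among the 56 alone (a smaller set, chosen after seeing the data), and 24 to 55 with 1 library left out; 0 were called lower under every alternative run. Members called higher in young fruiting body against mycelium numbered 65 to 95 with 1 library left out. Members called lower in fruiting body against young fruiting body went from 0 to 47 with DESeq2, 1 with limma-voom, 6 on the shared flowcell and 0 to 16 with 1 library left out. The cause of these shifts was not tested. The share of all models called is not given here for limma-voom, the replicate block and several fits with 1 library left out. These counts therefore describe the fits, and nothing about the members is read from them. On the shared flowcell, and without 1 young fruiting body library, a stage has 1 library, which is assumed to vary like the others. The replicate numbers showed no clear pairing of the libraries. Deviations from the stage mean correlated at -0.278 to 0.196 between same-numbered libraries and at -0.251 to 0.316 between others. Deviations within a stage cancel, which ties these values together, so they cannot exclude pairing. With the replicate block the counts of members called were 40, 73 and 0. Of 152 alternative values for the log2 fold changes of 9 members in fruiting body against mycelium, 13 lost their call and none changed sign. Apart from model 1716257, which was not called, the 9 were picked as named members already called, so they do not stand for the members at large. The log2 fold change of model 1716257 ran from -3.34 to -0.0454. With 2 young fruiting body libraries, the spread of that stage is the least well known.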
